A study of Rattus norvegicus with 138 samples.

Results

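The expression of 9 genes of the neuromuscular junction and of denervated muscle (Chrna1, Chrnb1, Chrnd, Chrne, Chrng, Musk, Ncam1, Runx1 and Gadd45a) was followed in rat tibialis anterior (TA) muscle after volumetric muscle loss (VML), the surgical removal of more muscle than the tissue can replace. The genes were chosen by symbol from the 16181 gene symbols used here, and 9 of 9 passed the filter on low values, as did 11328 symbols in all. Male Lewis rats, an inbred strain, had a punch defect made in the TA of one leg, and the TA of the other leg was the contralateral muscle. Injured muscle was labelled by repair (no repair, or a minced muscle graft, MMG, made from the rat's own excised tissue) and by running (Run or NoRun, with no running protocol given), and was collected at 3, 7, 14 and 28 days post injury (DPI). Control muscle, labelled Sham at day 0 but called unoperated by the study, came from 4 TA muscles, left and right, of 2 rats.

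Without repair or running there were 3, 8, 4 and 4 injured muscles at 3, 7, 14 and 28 DPI and 2, 4, 2 and 2 contralateral muscles. With graft and without running there were 7, 8, 4 and 4 injured and 2, 6, 2 and 2 contralateral muscles. Running rats gave 8, 4, 4 and 2 injured muscles without repair and 6, 4, 4 and 2 with graft, with 2 contralateral muscles in each of these arms at 3, 7 and 14 DPI and none used at 28 DPI. Within a group each operated muscle came from a separate rat. The control rats carry another series number than the operated rats, so series and injury cannot be told apart in comparisons with control, whereas each contralateral muscle came from a rat whose injured muscle was used. Only 34 of the 76 injured muscles had their own contralateral muscle, so injured and contralateral groups share rats in part.

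The neuromuscular junction is the synapse at which a motor nerve releases acetylcholine onto a muscle fibre. Its receptor combines alpha (Chrna1), beta (Chrnb1) and delta (Chrnd) subunits with either the gamma subunit (Chrng) of fetal and denervated muscle or the epsilon subunit (Chrne) of the adult endplate. In an innervated fibre the nuclei under the synapse transcribe most of the receptor, and electrical activity represses the genes elsewhere, a repression that is lifted when the nerve is lost. MuSK (Musk) is the kinase through which nerve-derived agrin gathers the receptors, Ncam1 is an adhesion molecule that spreads over denervated and regenerating fibres, and Runx1 and Gadd45a are a transcription factor and a stress-response protein known to be induced by denervation.

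Promoters are shown for 4 receptor subunits, to set the gamma and epsilon genes, which replace each other, beside the alpha and delta genes. RefSeq gave a window of 300 bases, 250 before and 50 after the start, on build GRCr8 for 8 of the 9 genes, all but Ncam1. The sequences read 5′ to 3′ on the strand of the gene. Capitals mark the E-box CAGCTG, letters that myogenic factors can bind, and the N-box CCGGAA or its reverse complement TTCCGG, letters known from synaptic genes. Chrna1 lies at chr3:78877304-78877603 on the minus strand, Chrnd at chr9:95310066-95310365 and Chrng at chr9:95325734-95326033 on the plus strand, and Chrne at chr10:55834105-55834404 on the minus strand.
Chrna1: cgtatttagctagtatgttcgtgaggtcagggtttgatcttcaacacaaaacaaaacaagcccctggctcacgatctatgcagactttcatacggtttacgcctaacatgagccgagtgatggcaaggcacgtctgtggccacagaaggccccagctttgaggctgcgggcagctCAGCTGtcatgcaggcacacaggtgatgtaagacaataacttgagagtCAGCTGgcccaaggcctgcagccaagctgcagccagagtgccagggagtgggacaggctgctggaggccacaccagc
Chrnd: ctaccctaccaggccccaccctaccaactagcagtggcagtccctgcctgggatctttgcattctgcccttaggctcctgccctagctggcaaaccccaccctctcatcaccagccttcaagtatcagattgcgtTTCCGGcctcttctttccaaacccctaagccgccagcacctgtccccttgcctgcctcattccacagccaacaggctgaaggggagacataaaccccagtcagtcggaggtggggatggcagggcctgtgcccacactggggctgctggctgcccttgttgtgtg
Chrng: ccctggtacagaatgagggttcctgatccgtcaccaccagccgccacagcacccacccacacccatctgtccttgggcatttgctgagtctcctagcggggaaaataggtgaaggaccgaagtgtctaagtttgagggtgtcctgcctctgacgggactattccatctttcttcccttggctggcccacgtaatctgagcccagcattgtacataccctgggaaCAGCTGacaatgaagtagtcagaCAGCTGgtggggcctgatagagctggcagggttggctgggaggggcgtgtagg
Chrne: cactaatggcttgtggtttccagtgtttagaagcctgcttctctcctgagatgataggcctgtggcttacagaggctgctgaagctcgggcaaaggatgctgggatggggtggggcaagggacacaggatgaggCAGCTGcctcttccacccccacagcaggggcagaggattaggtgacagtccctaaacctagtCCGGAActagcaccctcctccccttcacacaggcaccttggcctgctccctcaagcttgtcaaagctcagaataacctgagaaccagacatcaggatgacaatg
CAGCTG stood in 6 of the 8 windows (Chrna1, Chrnb1, Chrne, Chrng, Gadd45a and Musk) and in 15.1% of 33469 promoter windows of the same length. Its first base lay at -75 and -27 in Chrna1, at -26 and -3 in Chrng and at -116 in Chrne, counted from the start. The N-box letters, searched on both strands, stood in Chrnd at -115 and in Chrne at -54, and in 15% of all windows. The general E-box CANNTG, which includes CAGCTG, stood in 8 of 8 windows and in 72.1% of all. These are matches of letters only.

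Values are TPM, transcript abundances scaled for transcript length and to one total per library, so that they do not give the depth of each library. The 13 libraries with 901 to 5712 symbols above 1 TPM were left out, and those kept had 7866 to 10948. The 114 muscles in 31 groups were fitted in one limma model on log2(TPM + 1). A gene was called when its Benjamini-Hochberg adjusted p over all tested genes was under 0.05 and its log2 fold change was beyond 1. To check the tissue label, 10 genes of adult fast fibres were summed and came to 231413.5 to 301521.7 TPM in control muscle. In whole muscle, fewer cells of a type and less RNA per cell cannot be told apart.

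Injured muscle was first compared with contralateral and control muscle at each time, without repair or running, to ask how the genes responded to the defect. Most of them were far higher in injured muscle from 3 to 28 DPI. Against contralateral muscle 7, 9, 9 and 8 of the 9 genes were called higher at 3, 7, 14 and 28 DPI, where 32.3%, 45.3%, 20.9% and 13.1% of all tested genes were called higher. Of the 9 genes 8, 9, 9 and 9 lay wholly above contralateral muscle, as did 59.7%, 67.0%, 73.1% and 67.4% of all genes. Against control muscle 7, 9, 8 and 9 were called higher, where 48.3%, 45.6%, 25% and 21.1% of all genes were. Over the 9 genes the log2 fold change against contralateral muscle had a median of 3.93, 4.56, 3.32 and 2.92, beside 0.54, 0.91, 0.50 and 0.38 over all tested genes. Dividing the libraries by median-of-ratios size factors took the median of all genes at 3 and 7 DPI to 0.05 and 0.06. The medians of the 9 genes above are without these factors. Over the other settings tried, single muscles left out aside, the lowest values at 3 and 7 DPI were 3.56 and 4.40 for Chrna1. They were 3.41 and 3.68 for Runx1 and -0.20 and 0.16 for Chrnb1.

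Chrna1, whose subunit carries most of the acetylcholine-binding site, was at 4.74, 5.99, 3.96 and 3.72 TPM in control muscle. In contralateral muscle it was at 6.92 and 8.01 TPM at 3 DPI, 5.87, 13.8, 11.7 and 7.2 at 7 DPI, 6.51 and 5.17 at 14 DPI and 4.47 and 4.88 at 28 DPI. In injured muscle it was at 118.1, 162.9 and 159.7 TPM at 3 DPI, 137.9 to 785.6 (median 457.8, n = 8) at 7 DPI, 119.8, 107.2, 152.2 and 223.3 at 14 DPI and 105.8, 114.1, 240.4 and 146.7 at 28 DPI. Every injured muscle lay above every contralateral and control muscle. The log2 fold change against contralateral muscle was 4.11 ± 0.56 (SE), 5.43 ± 0.37, 4.42 ± 0.53 and 4.67 ± 0.53 at the 4 times, with limma adjusted p from 6.38e-24 to 4.15e-10.

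Chrnd, the delta subunit, was at 3.61, 3.61, 3.46 and 3.32 TPM in control muscle and at 2.69 to 11.9 in the contralateral muscles of these rats. After injury it reached 129.7, 180.1 and 164.6 TPM at 3 DPI, 151.4 to 830.6 (median 533.3, n = 8) at 7 DPI, 93.3, 87.9, 121.7 and 181.8 at 14 DPI and 53.4, 60, 125.8 and 61.3 at 28 DPI. Every injured muscle lay above every contralateral and control muscle. Its log2 fold change against contralateral muscle was 4.53 ± 0.58, 5.91 ± 0.39, 4.83 ± 0.55 and 4.06 ± 0.55 at the 4 times, with limma adjusted p from 4.52e-25 to 4.92e-09.

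Chrng, the fetal gamma subunit, was listed at 0 in 2 control muscles and at 0.22 and 0.08 TPM in the others, and at no more than 0.41 TPM in these contralateral muscles. In injured muscle it was at 48.8, 76.6 and 56.7 TPM at 3 DPI, 51 to 183.7 (median 151.3, n = 8) at 7 DPI, 22.9, 22.2, 26.4 and 53.8 at 14 DPI and 13.6, 14.2, 24.2 and 16.97 at 28 DPI. A transcript at the edge of detection in reference muscle thus had a mean level above that of Chrnb1 at 3 and 7 DPI. The log2 fold change against contralateral muscle was 5.62 ± 0.48, 6.84 ± 0.33, 4.72 ± 0.46 and 4.08 ± 0.46, with limma adjusted p from 1.96e-33 to 1.43e-11. These are on the log2(TPM + 1) scale, which understates the change of a gene so low in the reference.

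Chrne, the adult epsilon subunit, was not called at 3 DPI, and neither was Chrnb1. It was at 5.4, 13.6 and 5.71 TPM in injured muscle at 3 DPI, beside 7.93 and 11.7 in contralateral and 5.69, 7.89, 6.45 and 3.31 in control muscle, and these ranges overlapped. The log2 difference at 3 DPI was -0.32 ± 0.33 against contralateral muscle (95% interval -0.98 to 0.35; limma adjusted p = 0.399) and 0.37 ± 0.28 against control (95% interval -0.18 to 0.93; adjusted p = 0.208). The difference from control turned to -0.63 with size factors.

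From 7 DPI on Chrne was high as well. It was at 42.8 to 71.7 (median 59.3, n = 8) TPM at 7 DPI, 33.6, 30.3, 39.7 and 40.1 at 14 DPI and 38, 34.2, 48.7 and 46.6 at 28 DPI, above the 6.61 to 13.1 TPM of contralateral muscle at these times. Its log2 fold change against contralateral muscle was 2.31 ± 0.22, 2.05 ± 0.32 and 2.24 ± 0.32, with limma adjusted p from 3.22e-16 to 7.01e-08. In RefSeq Chrne overlaps Gp1ba and C10h17orf107, and the latter, listed here as LOC687707, had a mean of 5.58 TPM at 3 DPI and 40.6 at 7 DPI in injured muscle. Whether reads of these genes were told apart is not given in the sources used here.

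Chrnb1, the beta subunit, had the highest level of the 5 subunits in control muscle, at 30.4, 30.6, 25.4 and 18.2 TPM, and the smallest change of the 9 genes from 7 DPI on. Injured muscle held 41.8, 58.8 and 50.2 TPM at 3 DPI beside 41.5 and 35.9 in contralateral muscle, a log2 difference of 0.36 ± 0.31 (95% interval -0.26 to 0.98; limma adjusted p = 0.3) that turned to -0.20 with size factors. Against control the difference at 3 DPI was 0.93 ± 0.26, under the fold limit, and turned to -0.19 with size factors.

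At 7 DPI Chrnb1 was at 34.7 to 102.4 (median 72.1, n = 8) TPM in injured and 26.5, 27.7, 31.2 and 28.8 in contralateral muscle. The groups did not overlap, and the log2 fold change was 1.23 ± 0.21 (limma adjusted p = 1.40e-07). With size factors it was 0.16 and not called, so that the call depends on the scaling. At 14 DPI the fold change was 1.08 ± 0.30, or 0.44 and not called with size factors, and at 28 DPI it was 1.00 ± 0.30, just under the fold limit (adjusted p = 0.00404) and called with a pseudocount of 0.1 TPM. The calls at 14 DPI, and at 28 DPI against control, were lost with all libraries kept, and those at 7 and 28 DPI against control with size factors. Leaving out 1 muscle at a time, the call at 14 DPI was lost in 1 of 6 fits (without injured replicate 4), and at 28 DPI 4 of 6 fits called the gene. Chrnb1 overlaps Zbtb4 in RefSeq.

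**Figure D1:**
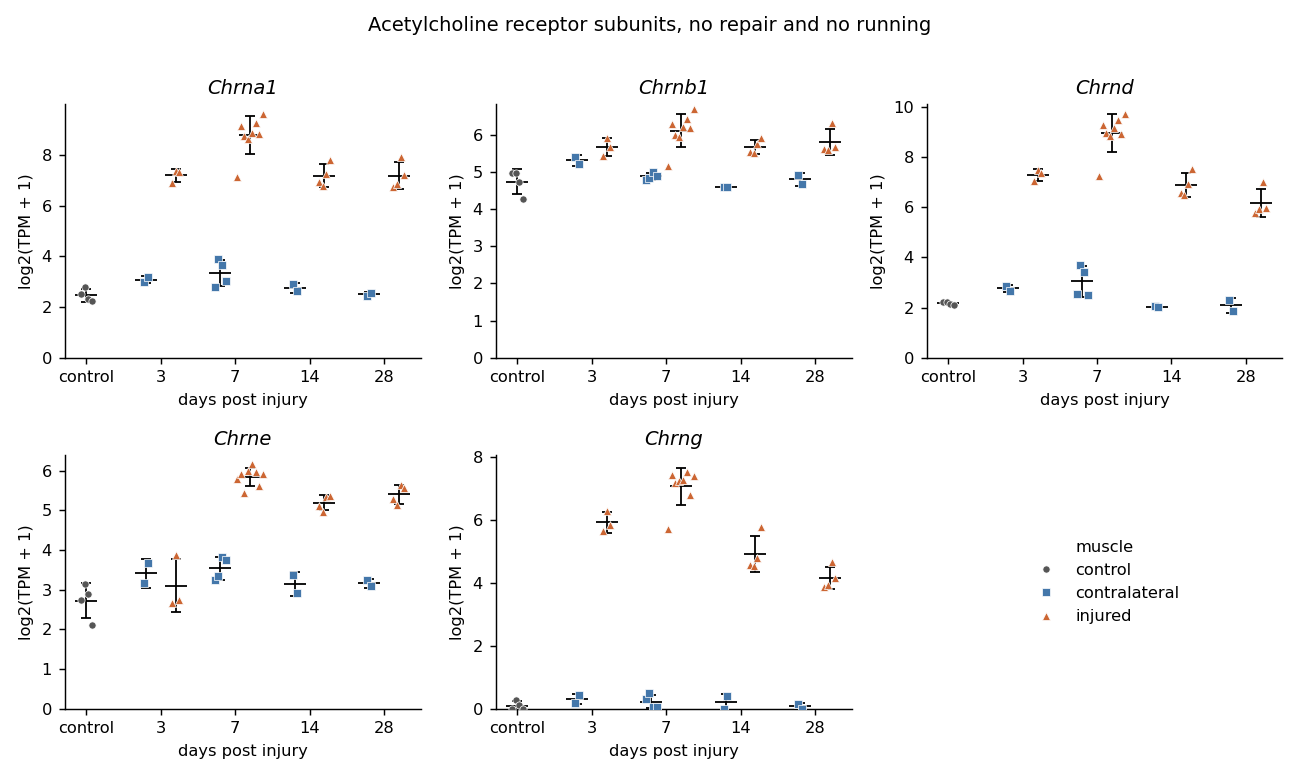
Levels of the 5 acetylcholine receptor subunits as log2(TPM + 1) in each muscle without repair or running, by days post injury. Circles are control, squares contralateral and triangles injured muscles, and bars give the mean and SD. Injured muscles lie above both references at every time for Chrna1, Chrnb1, Chrnd and Chrng and from 7 days on for Chrne, and Chrnb1 has the smallest difference from 7 days on.

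The order of the subunits by mean TPM differed between groups. In control muscle it was Chrnb1 at 26.1, Chrne at 5.83, Chrna1 at 4.602, Chrnd at 3.5 and Chrng at 0.075 TPM, where the ranges of Chrne and Chrna1 overlapped. In injured muscle at 7 DPI it was Chrnd at 542.8 ± 202.4 (SD, n = 8), Chrna1 at 479.04 ± 187.3, Chrng at 141.1 ± 42.8, Chrnb1 at 70.8 ± 19.7 and Chrne at 57.4 ± 8.99 TPM. There the ranges of each neighbouring pair overlapped, Chrnd with Chrna1, Chrna1 with Chrng, Chrng with Chrnb1 and Chrnb1 with Chrne. Within every one of these muscles, however, Chrnd lay above Chrna1, Chrna1 above Chrng and Chrng above Chrnb1. Chrne lay above Chrnb1 in rats 11 and 20 and below it in the others. TPM is scaled for transcript length, so these levels may be set side by side.

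The share of Chrng in the summed TPM of Chrng and Chrne was computed in each muscle, as a description of the 2 exchangeable subunits. It was 0 to 2.71% in control muscle. In injured muscle without repair or running it was 90.04, 84.9 and 90.9% at 3 DPI, 48.5 to 77.04 (median 72.3, n = 8)% at 7 DPI, 40.5, 42.3, 39.9 and 57.3% at 14 DPI and 26.3, 29.3, 33.2 and 26.7% at 28 DPI. The values of 3, 14 and 28 DPI did not overlap one another, and those of 28 DPI stayed above the control range. Over all 4 arms the share was 63.7 to 90.9% at 3 DPI, 48.5 to 79.7% at 7 DPI, 34.9 to 65.2% at 14 DPI and 14.7 to 33.2% at 28 DPI. No contralateral muscle was above 5.96%.

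**Figure D2:**
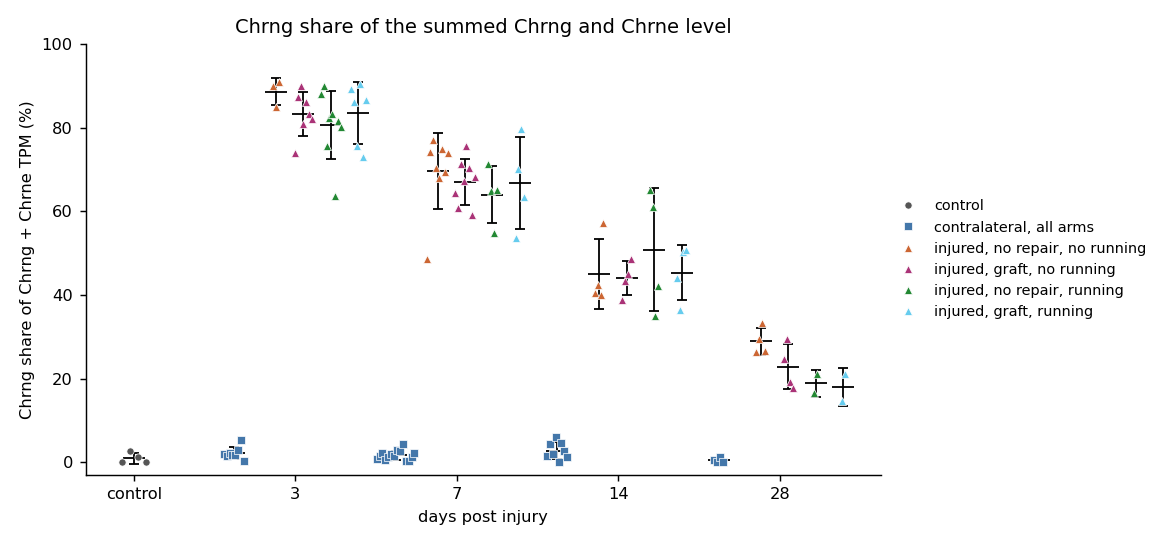
Share of Chrng in the summed TPM of Chrng and Chrne, in percent, in each muscle by days post injury, with the mean and SD as bars. Circles are control muscles, squares contralateral muscles of all arms and triangles injured muscles by arm. Injured muscles lie at 63.7 to 90.9% at 3 days and at 14.7 to 33.2% at 28 days, and contralateral muscles at no more than 5.96%.

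Musk, the kinase that organises receptor clusters, was at 0.33, 0.54, 0.36 and 0.05 TPM in control and 0.39 to 0.9 in contralateral muscle. The injured muscles held 9.24, 21.3 and 17 TPM at 3 DPI, 10.1 to 25.9 (median 18.4, n = 8) at 7 DPI, 6.72, 5.73, 7.63 and 10.4 at 14 DPI and 7.72, 6.81, 13.8 and 9.22 at 28 DPI. All injured muscles lay above all references. The log2 fold change against contralateral muscle was 3.18 ± 0.41, 3.39 ± 0.27, 2.30 ± 0.39 and 2.83 ± 0.39, with limma adjusted p from 3.12e-20 to 4.34e-07.

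Ncam1, the adhesion molecule, was at 2.26, 1.9, 1.76 and 1.69 TPM in control and 1.7 to 3.69 in contralateral muscle. In injured muscle it was at 65.97, 109.98 and 70.5 TPM at 3 DPI, 58.4 to 222.7 (median 136.9, n = 8) at 7 DPI, 25.1, 25.6, 34.3 and 48.95 at 14 DPI and 26.7, 28.9, 49.97 and 31.8 at 28 DPI, again with no overlap. The log2 fold change against contralateral muscle was 4.23 ± 0.40, 5.1 ± 0.27, 3.34 ± 0.38 and 3.38 ± 0.38. Nerve-associated and some immune cells also make Ncam1.

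Runx1, the transcription factor, was at 1.48, 2.44, 1.98 and 1.06 TPM in control and 1.5 to 4.12 in contralateral muscle. Injured muscle held 49.3, 70.8 and 68.2 TPM at 3 DPI, 31.4 to 118.1 (median 71.2, n = 8) at 7 DPI, 19.8, 19.8, 22.9 and 37.9 at 14 DPI and 11.4, 17.9, 35.2 and 22.01 at 28 DPI. The groups did not overlap at any time, and the log2 fold change against contralateral muscle was 3.93 ± 0.44, 4.56 ± 0.29, 3.32 ± 0.41 and 2.74 ± 0.41. Blood cells express Runx1 too.

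Gadd45a, which acts in the response to stress and DNA damage, had the highest mean level of the 9 genes in injured muscle at each time. It was at 24.3, 26.7, 24.5 and 9.75 TPM in control and 23.4 to 63.05 in contralateral muscle. After injury it was at 407.01, 586.5 and 646.7 TPM at 3 DPI, 137.1 to 1069.3 (median 690.1, n = 8) at 7 DPI, 218.3, 173.9, 186.7 and 276.9 at 14 DPI and 197.98, 204.4, 309.8 and 184.9 at 28 DPI, above all references. The log2 fold change against contralateral muscle was 3.36 ± 0.53, 3.88 ± 0.36, 3.03 ± 0.51 and 2.92 ± 0.51. RefSeq places LOC100912188 over Gadd45a and 4930522L14Rikl over Musk.

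**Figure D3:**
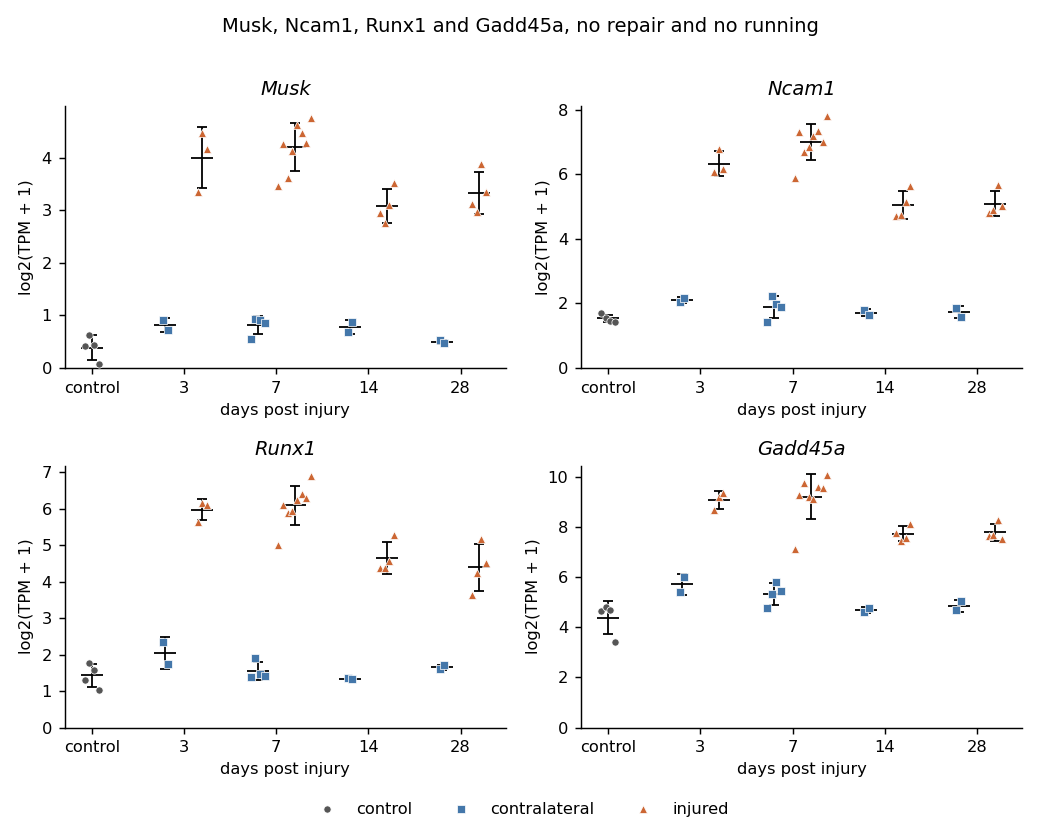
Levels of Musk, Ncam1, Runx1 and Gadd45a as log2(TPM + 1) in each muscle without repair or running, by days post injury, for control, contralateral and injured muscles, with the mean and SD as bars. All injured muscles lie above all control and contralateral muscles for each of the 4 genes.

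Markers of other cells moved at the same times, and their part in these differences was not tested. Of 10 adult fast fibre genes 10, 8, 0 and 0 were called lower in injured than in contralateral muscle at 3, 7, 14 and 28 DPI. Called higher were 10, 10, 10 and 9 of 10 leukocyte genes, 9, 10, 10 and 10 of 10 fibroblast genes, 5, 6, 6 and 6 of 8 tested genes of regenerating myogenic cells and 2, 4, 4 and 4 of 7 tested Schwann cell genes. The fibre list summed to 46305.8 to 62627.1 TPM in injured muscle at 3 DPI and 186974.6 to 218831.8 at 28 DPI, and the leukocyte list to 17.4 to 38.3 in control, 4417.8 to 5954.9 at 3 DPI and 232.3 to 808.5 at 28 DPI.

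The fibroblast list summed to 92.4 to 278.3 TPM in control and 7931.3 to 23107.6 at 7 DPI, and the Schwann cell list to 13.4 to 25.4 in control and 68.8 to 152.6 at 7 DPI. The myogenic list summed to 41.4 to 68.9 TPM in control muscle and to 650.9 to 824.5, 659.4 to 1008.2, 336.8 to 511.9 and 282.7 to 383.5 in injured muscle at the 4 times. Among these lists Gfap alone was at 0 in every muscle of a group, in contralateral muscle at 14 and 28 DPI.

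Injured muscle was then compared between successive times, to ask when the genes changed. From 3 to 7 DPI 4 of the 9 genes rose, all of them receptor subunits, where 2% of all genes rose. Chrne rose by 2.76 ± 0.25 on the log2 scale (limma adjusted p = 2.68e-15), and was at 5.4 to 13.6 TPM at 3 DPI and 42.8 to 71.7 at 7 DPI. Chrnd rose by 1.65 ± 0.43, Chrna1 by 1.58 ± 0.41 and Chrng by 1.14 ± 0.36, each with overlap between the days. Log2 differences that were not called were 0.20 ± 0.30 for Musk, 0.12 ± 0.32 for Runx1, 0.14 ± 0.40 for Gadd45a, 0.68 ± 0.30 for Ncam1 and 0.44 ± 0.23 for Chrnb1. The call of Chrng was lost without 1 muscle of 3 DPI (rat 10) and, at 0.97, with rat number range added to the model. With the 13 low-complexity libraries kept, 1 of the 4 calls, that of Chrne, was left, and the values of Musk, Runx1 and Gadd45a turned below 0.

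From 7 to 14 DPI 7 of the 9 genes fell, where 6.1% of all genes fell. Chrng decreased by 2.15 ± 0.33 on the log2 scale, Chrnd by 2.08 ± 0.39, Ncam1 by 1.96 ± 0.27, Chrna1 by 1.59 ± 0.37, Gadd45a by 1.49 ± 0.36, Runx1 by 1.45 ± 0.29 and Musk by 1.12 ± 0.27, with limma adjusted p from 7.48e-09 to 0.000239. Chrne and Chrnb1 were at -0.66 ± 0.22 and -0.44 ± 0.21 and were not called. Chrne and Ncam1 lay wholly lower at 14 than at 7 DPI, as did 36.7% of all genes. The median of all genes was -0.40. With all libraries kept 4 calls were left, without Chrna1, Gadd45a and Musk, and with size factors Musk was at -0.75 and not called.

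From 14 to 28 DPI limma called 0 of the 9 genes, 1 had an unadjusted p under 0.05, and 0.459% of all genes were called. That gene was Chrng, at -0.76 ± 0.38 (95% interval -1.51 to -0.02; adjusted p = 0.349). Mean levels in injured muscle at 28 DPI were still 32.5 times those of contralateral muscle for Chrna1 and 2.08 times for Chrnb1.

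Contralateral muscle was compared with control muscle, to ask whether the genes moved away from the wound. Without repair or running 1 of the 9 genes was called at 3 DPI, where 6.43% of all genes were called, and 0 at 7, 14 or 28 DPI, where 0.803%, 0.715% and 0.185% were called. The gene was Gadd45a, at 41.6 and 63.05 TPM against 24.3, 26.7, 24.5 and 9.75 in control, a log2 fold change of 1.32 ± 0.51 (limma adjusted p = 0.0239). The call was lost, to a count of 0, without either contralateral muscle, without the control muscle at 9.75 TPM, with size factors, with all libraries kept and with control averaged per rat. All 9 differences were above 0 at 3 and at 7 DPI, but with all libraries kept 7 of those at 7 DPI were below 0. At 3 DPI 7 genes (all but Chrng and Runx1) lay wholly above control, as did 60.2% of all genes, and at 7 DPI 2 did, Chrnd and Chrne, beside 7.43% of all. Chrne at 7 DPI had a log2 difference of 0.81 ± 0.26 (adjusted p = 0.0383), under the fold limit, or -0.37 with all libraries kept. At 7, 14 and 28 DPI 3, 0 and 0 of the 9 genes had an unadjusted p under 0.05. At 3 DPI 10 of 10 fibroblast and 8 of 10 leukocyte genes were also called higher in contralateral than in control muscle, and their part was not tested.

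The graft was compared with no repair in injured muscle of rats that did not run, to ask whether returned muscle tissue altered these genes. Limma called none of the 9 at any time, where 0.00883%, 0.0883%, 0.0265% and 0% of all genes were called, and none had an unadjusted p under 0.05. The log2 differences were -0.67 to 0.22 at 3 DPI, -0.18 to 0.24 at 7 DPI, 0.07 to 0.48 at 14 DPI and -0.26 to 0.19 at 28 DPI, and their 95% intervals reached from -1.40 to 1.23. Chrne at 14 DPI was the one gene and time without overlap, at 43.6, 63.8, 41.8 and 54.5 TPM with graft against 33.6, 30.3, 39.7 and 40.1 without, where 7.64% of all genes lay wholly higher. Its log2 difference was 0.48 ± 0.26 (limma adjusted p = 0.73).

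In grafted rats 7, 8, 9 and 9 of the 9 genes were called higher in injured than in contralateral muscle at the 4 times, where 37.2%, 42.9%, 25.6% and 18.8% of all genes were. Those not called were Chrnb1 and Chrne at 3 DPI and Chrnb1 at 7 DPI. With size factors Chrne at 3 DPI was called lower, at -1.07 against -0.45. Chrnb1 at 7 DPI was at 0.99 ± 0.19, just under the fold limit, and was called with the pseudocount of 0.1 TPM, with rat number range added and, at 1.08, without rat 16. With size factors Chrnb1 was at 0.47 at 14 DPI and 0.42 at 28 DPI and not called, it was not called at either time with all libraries kept, and at 28 DPI it was not called without either muscle of rat 76 or the injured muscle of rat 75. Chrng reached 6.94 ± 0.29 at 7 DPI. The difference in this response between grafted and other rats was called for none of the 9 genes at any time, where 0%, 0%, 0% and 0% of all genes were called, and none had an unadjusted p under 0.05.

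**Figure D4:**
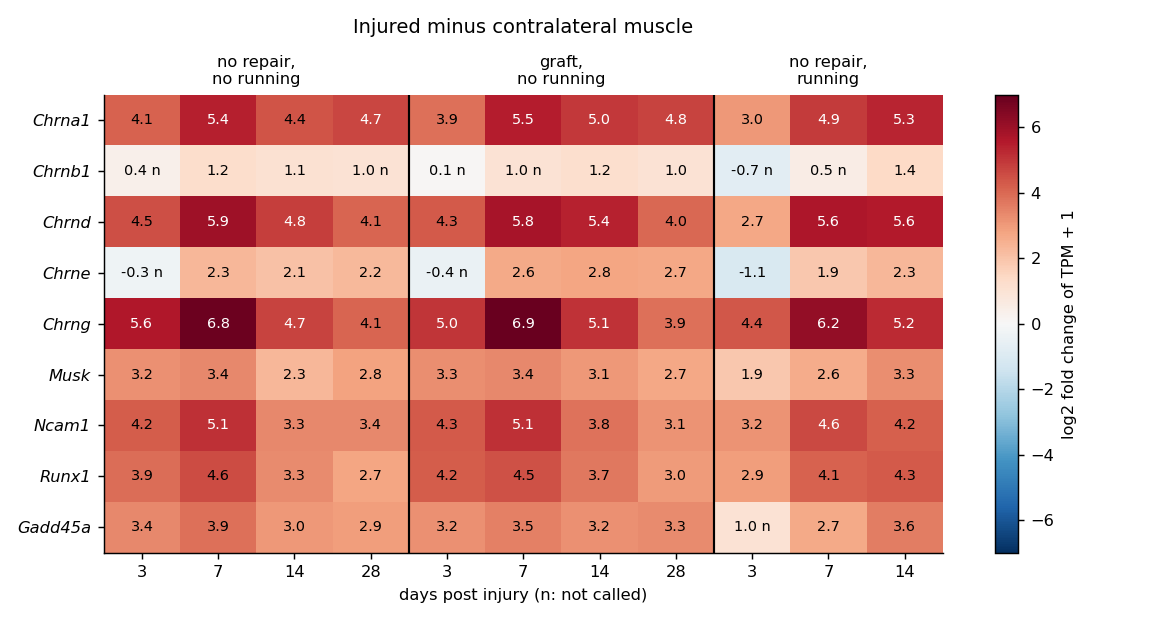
Log2 fold change of TPM + 1 in injured against contralateral muscle by days post injury for the 9 genes, in rats without repair or running, with graft, and with running. Red is higher in injured muscle, and an n marks values that were not called. Chrng at 7 days has the highest value in each of the 3 arms, from 6.16 to 6.94.

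Running was compared with no running in injured muscle within each repair arm, to ask whether activity went with these genes. Without repair limma called none of the 9 at 3, 7, 14 or 28 DPI, where 0.0441%, 0%, 0.0177% and 0.0177% of all genes were called, and 1, 5, 4 and 9 had an unadjusted p under 0.05. The 9 differences were below 0 at 3, 7 and 28 DPI but above 0 at 14 DPI, where they were 0.20 to 0.99, although Musk and Runx1 at 3 DPI turned above 0 with each library as its own sample. At 7 DPI 2 genes, Chrna1 and Chrnd, were called lower without rat 11, whose injured muscle was low in most of the 9 genes, and 0.194% of all genes were called lower in that fit. With graft none was called either, where 0% of all genes were called at each time, and 0, 0, 0 and 9 had an unadjusted p under 0.05. The share of all genes under that unadjusted p was not counted, here or for other comparisons. Most of the 9 genes follow one another over the groups, so such counts are not of separate results. At 28 DPI all 9 values were below 0 in both arms, with 2 running rats in each. There Gadd45a was at 57.2 and 78.01 TPM in running rats without repair and 53.9 and 84.1 with graft, with log2 differences of -1.70 ± 0.51 and -1.69 ± 0.51 (adjusted p 0.366 and 0.201).

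Averaged over both repair arms, a comparison added after these values were seen, 7 of the 9 genes were called lower with running at 28 DPI, where 0.309% of all genes, or 35, were. Chrna1 was at 40.1, 72.3, 36.1 and 76.3 TPM in the 4 running rats and at 81.6 to 351.8 (median 130.4, n = 8) in the others. Gadd45a was at 53.9 to 84.1 TPM against 107.03 to 595.2 (median 201.2, n = 8), and Musk at 2.27 to 4.25 against 4.57 to 22.1 (median 8.41, n = 8). For 6 genes (Chrna1, Chrnb1, Chrne, Musk, Runx1 and Gadd45a) the 4 running rats lay wholly below the others, as did 4.18% of all genes.

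The log2 differences at 28 DPI over both arms were -1.70 ± 0.36 for Gadd45a, -1.64 ± 0.39 for Chrnd, -1.43 ± 0.37 for Chrna1, -1.33 ± 0.33 for Chrng, -1.29 ± 0.29 for Runx1, -1.26 ± 0.27 for Musk and -1.10 ± 0.27 for Ncam1, with limma adjusted p from 0.00374 to 0.0246. Chrne was at -0.84 ± 0.22 and Chrnb1 at -0.67 ± 0.21, not called. The count of 7 rests on single rats, since it was 0 without rat 85 (no repair, running) or rat 87 (graft, running) and 2 without rat 76 (graft, no running). It was 1 with all libraries kept and 6, without Ncam1, with size factors. With any 1 muscle left out the 7 differences stayed below 0, at -0.86 or lower for Ncam1 and beyond -1 for the other 6. At 3, 7 and 14 DPI limma called none of the 9 and 0.0177%, 0% and 0% of all genes, and 1, 1 and 2 genes had an unadjusted p under 0.05. At 14 DPI the 9 differences were above 0, at 0.03 to 0.53, though Chrne turned just below 0 with size factors.

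Another 4 rats labelled Run at 28 DPI could not be placed, because their libraries titled Ctrl carry the injury label VML and those titled Inj the label NoVML, and the counts and the separation of groups at 28 DPI are without them. In 2 of these, rats 78 and 79, the library titled Ctrl lay inside the range of the rats that did not run for 9 of the 9 genes, with Chrna1 at 136.3 and 134.2 and Gadd45a at 211.6 and 198.9 TPM. In rats 77 and 80 that library lay inside the range for 5 and 2 of the 9 genes and below it for the rest. The libraries titled Inj of the 4 rats lay below the range for all 9. The fibroblast list summed to 2240.4 to 4960.1 TPM in the libraries titled Ctrl and 289.6 to 391.5 in those titled Inj, the leukocyte list to 262.2 to 503.5 and 46.1 to 62.2 and the myogenic list to 147.0 to 243.4 and 39.1 to 54.4, so that the higher sums went with the label VML.

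Marker sums at 28 DPI are given beside this result, and their part in it was not tested. The myogenic list summed to 125.8 to 195.8 TPM in running and 240.6 to 776.0 in other rats, with no overlap. The fibre list summed to 210305.1 to 226240.6 against 149484.4 to 218831.8 TPM, and the leukocyte list to 270.3 to 1376.7 against 232.3 to 808.5. The Schwann cell list summed to 90.1 to 108.9 against 59.6 to 195.4 TPM and the fibroblast list to 2625.0 to 3851.5 against 2572.4 to 5966.9.

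Contralateral muscle of running rats was compared with that of the others, again after values were seen. At 3 DPI 2 of the 9 genes, Musk and Gadd45a, were called higher with running, where 0.221% of all genes were. At 7 and 14 DPI limma called 0 of the 9 and 0.00883% and 0% of all genes, and none of the 9 had an unadjusted p under 0.05. Musk was at 3.25, 2.93, 5.4 and 2.5 TPM in running and 0.89, 0.66, 0.61 and 1.11 in other rats. Gadd45a was at 200.4, 169.8, 159.03 and 94.2 TPM against 41.6, 63.05, 55.4 and 43.4. The groups did not overlap for either gene, and the log2 differences were 1.28 ± 0.31 and 1.56 ± 0.41 (limma adjusted p 0.0141 and 0.0226).

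Chrnd, Chrnb1 and Chrna1 lay wholly higher too, at log2 differences of 1.36 ± 0.45, 0.72 ± 0.24 and 0.71 ± 0.43, which limma did not call (adjusted p 0.0969, 0.106 and 0.551). Of all genes 2.89% lay wholly higher. Chrng was at 0.04 to 0.82 TPM against 0.14 to 0.34. The count of 2 was 0 without rat 1, 5 or 13 and with all libraries kept, and 1 without rat 10, 14 or 17.

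Markers in contralateral muscle at 3 DPI are given for running against other rats, and their part was not tested. The myogenic list summed to 108.4 to 177.3 against 93.1 to 112.3 TPM, the fibre list to 158588.3 to 189596.3 against 185266.8 to 212979.3 and the leukocyte list to 98.1 to 174.3 against 71.8 to 196.8. The Schwann cell list summed to 38.5 to 69.5 against 43.6 to 72.2 TPM and the fibroblast list to 779.9 to 1797.3 against 707.6 to 1637.0.

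**Figure D5:**
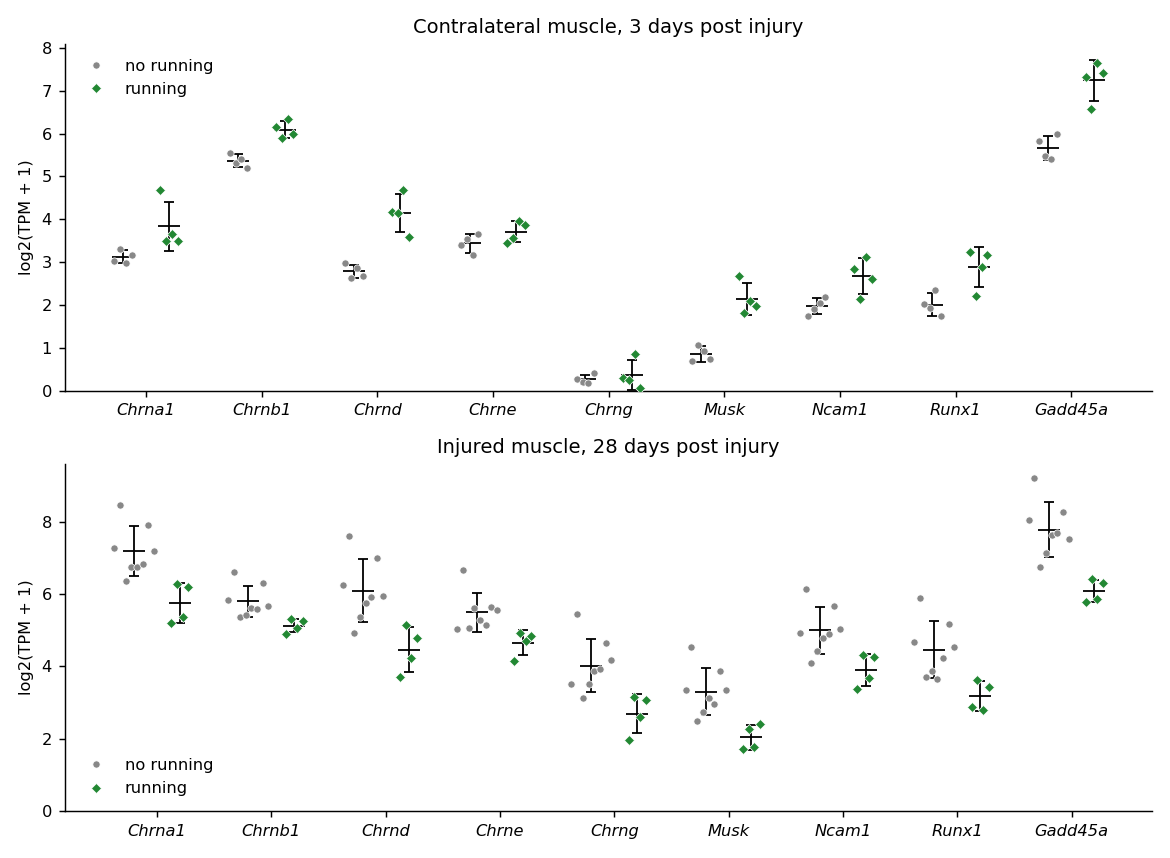
Levels of the 9 genes as log2(TPM + 1) in running (diamonds) and other rats (circles), both repair arms together, with the mean and SD as bars, in contralateral muscle at 3 days and injured muscle at 28 days. With running 5 genes lie wholly higher in contralateral muscle at 3 days and 6 lie wholly lower in injured muscle at 28 days.

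In running rats without repair the injured muscle was also set against the contralateral one. At 3 DPI 7 of the 9 genes were called, of which 6 were higher and Chrne was lower, at -1.07 ± 0.29 (limma adjusted p = 0.000624), where 40.1% of all genes were called. With all libraries kept the call of Chrne was lost. Gadd45a was at 0.99 ± 0.46 and Chrnb1 at -0.74 ± 0.27, not called, although Gadd45a lay wholly above and Chrnb1 wholly below contralateral muscle, as did 56.4% and 16.6% of all genes. With size factors Chrnb1 was called lower at -1.34, and with each library as its own sample Gadd45a was called higher at 1.08. At 7 and 14 DPI 8 and 9 were called higher, where 39.9% and 25.7% of all genes were. At 14 DPI Chrnb1 was at 1.39 ± 0.30, or 0.68 and not called with size factors, and not called with all libraries kept. The response at 3 DPI differed between running and other rats by -2.37 ± 0.71 for Gadd45a (adjusted p = 0.108). Of all genes 0.0971%, 0.00883% and 0% were called in this difference at 3, 7 and 14 DPI. Of 63 such differences between arms, over genes and times, limma called none. The 5 with an unadjusted p under 0.05 were all of running at 3 DPI, where the 9 differences were -2.37 to -0.76. With size factors 1 of the 63, that of Gadd45a with running at 3 DPI, was called.

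Other genes of the synapse, a list of 22 of which 21 were tested, were described beside the 9. Against contralateral muscle without repair or running 6, 11, 8 and 5 were called higher at the 4 times and 2 lower at 3 DPI, where 32.3%, 45.3%, 20.9% and 13.1% of all genes were called higher. Their median log2 fold change was 0.34, 1.14, 0.62 and 0.51, beside 0.54, 0.91, 0.50 and 0.38 over all genes. Erbb2 and Erbb3, receptors for neuregulin, were called higher at every time, at 3.03 ± 0.18 and 2.72 ± 0.16 at 7 DPI. Erbb3 is also on the Schwann cell list.

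Agrn, which encodes agrin, and Lrp4, its receptor beside MuSK, were called higher at 7 DPI, at 1.64 ± 0.16 and 1.89 ± 0.18, and at 14 DPI. Colq, the collagen tail that anchors acetylcholinesterase, was called higher at 7 DPI at 1.16 ± 0.17. Rapsn, the scaffold under the receptors, was at 0.89 ± 0.13 and Dok7, an activator of MuSK, at -0.23 ± 0.19 at 7 DPI, neither called. Ache, which encodes acetylcholinesterase, and Scn4a, the adult muscle sodium channel, fell at 3 DPI, at -1.67 ± 0.37 and -1.91 ± 0.33. Limma called none of the 21 in running against other rats, either in contralateral muscle at 3 DPI or in injured muscle at 28 DPI over both arms.

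Of 15 other genes of the denervation response 14 were measured and 13 tested. Against contralateral muscle 8, 10, 10 and 10 of the 13 were called higher at the 4 times and none lower, beside the same 32.3%, 45.3%, 20.9% and 13.1% of all genes. The median of their log2 fold changes was 2.30, 3.67, 2.56 and 2.20. Myog, the myogenic factor myogenin, was at 4.59 ± 0.42 at 3 DPI and 3.94 ± 0.40 at 28 DPI. The ubiquitin ligases of atrophy Trim63 and Fbxo32 were not called at any of the 4 times, and were at 0.89 ± 0.32 and 0.81 ± 0.38 at 7 DPI. Myog, Myh3 and Myh8 of this list also mark regenerating fibres.

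With running at 28 DPI over both arms 3 of these 13 genes were called lower, Myog at -1.48 ± 0.28, Sln, an inhibitor of the calcium pump, at -1.67 ± 0.32 and Cdkn1a, a cell cycle inhibitor, at -1.13 ± 0.29, where 0.309% of all genes were. The count was 0 without rat 85 or rat 87 and with all libraries kept, 2 without rat 76 or rat 81 and 5 without rat 75. In contralateral muscle at 3 DPI 3 were called higher with running, Myog at 1.52 ± 0.33, Cdkn1a at 1.64 ± 0.33 and Ampd3, a deaminase of AMP, at 1.41 ± 0.41, where 0.221% of all genes were. That count was 0 without rat 5 and with all libraries kept, and 2, without Ampd3, with no filter on low values or with any 1 of 6 other muscles left out. Myog was at 33.4 to 87.1 TPM there in running and 18.6 to 24.3 in other rats.

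Over the 31 group means of log2(TPM + 1) 7 of the 9 genes followed one another closely, and Chrne and Chrnb1 less so. Pearson r was 0.990 between Ncam1 and Runx1 and 0.984 between Chrna1 and Chrnd. It was 0.592 to 0.772 between Chrne and the other genes and 0.693 to 0.865 between Chrnb1 and the others. The groups share injury, time and scaling to one total, so these values only describe the pattern.

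The tested gene most like Chrng over these means was Tmem8c, the myoblast fusion factor also called myomaker (r = 0.994), followed by Sox4 and Tmem119. The gene most like Musk was Myog (r = 0.985), followed by Lnx2 and Srgap2. Chrna1 was most like Dclk1 (r = 0.989), Faah and LOC363337, and Chrnd most like Tac4 (r = 0.992), Hsd11b2 and Galr2. Ncam1 was most like Chrd (r = 0.995), Mical1 and Aif1l, and Runx1 most like Lnx2 (r = 0.995), Cd151 and Impdh1. Gadd45a was most like Traf3ip3 (r = 0.985), Myog and Copz2, and Chrnb1 most like Tmem38b (r = 0.979), Acsl3 and Lipg. Chrne was most like LOC687707 (r = 0.991), the gene that overlaps it, then Gnb3 and Matn4.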

How the data were processed

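RNA of rat tibialis anterior muscle was sequenced by the study, and the deposited table holds TPM per gene symbol and library, which the authors made with Kallisto on rat build 6.0. The submitters' processing notes name kallisto and DESeq without versions, and read counts were not used here. TPM keep no depth, so no counting interval is given. Of 16182 symbols 1 had missing values and was left out. Libraries with fewer than 7000 symbols above 1 TPM were dropped (13 libraries), 9 whose labels conflict were not placed, and repeat libraries of 2 muscles were averaged, which left 114 muscles of 78 rats.

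Symbols with a group mean above 1 TPM were tested on log2(TPM + 1) with limma 3.58.1 (trended prior, R 4.3.3) in one model of 31 groups, with 83 residual degrees of freedom and Benjamini-Hochberg adjustment over all 11328 symbols. The fit was tested on simulated data with known changes. Alternatives were other pseudocounts, filters, size factors, covariates, replicate structure and single muscles left out. The genes, the lists and the rule for naming genes (the 9 genes, a few genes per list by role, and the 3 symbols most like each gene) were chosen with earlier results of these data known. Running comparisons over both arms and in contralateral muscle, fits without rat 11 or rat 16, and the refits of the denervation list, were added after values were seen. A gene of the denervation list that this rule names is not reported here.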

Additional observations from a re-analysis of the deposited data

Results flagged for a closer look

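Single muscles stood far from the rest of their group in 22 of 160 tests by Dixon's gap at the 95% level. That level assumes independent normal values, whereas these were TPM of genes that mostly follow one another. Some muscles gave several flags, so the count cannot be set against chance. In the contralateral muscle of rat 16 (7 DPI, graft, no running) Chrna1 was at 25.69 TPM against 4.97 to 7.58 in the other 5 muscles, Chrnd at 28.08 against 4.31 to 7.42, Chrne at 12.72, Musk at 2.2 and Ncam1 at 4.97. In 1 injured muscle at 7 DPI with graft and no running (replicate 5) Chrna1 was at 748.51, Chrnd at 885.4, Chrng at 300.61 and Gadd45a at 1381.89 TPM, all above the rest. In that of rat 81 (28 DPI, no repair, no running) Chrnb1 was at 78.95, Chrnd at 125.8 and Gadd45a at 309.78 TPM, also above.

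Chrng was high in 1 muscle of each of 4 groups, at 57.75 TPM in replicate 4 at 14 DPI with graft and running, 53.83 in replicate 4 at 14 DPI without either, 99.79 in replicate 2 at 14 DPI with running alone and 42.31 in rat 76 (28 DPI, graft, no running). Musk was low at 11.07 TPM in rat 25 (3 DPI, graft, running) and Ncam1 low at 46.94 in rat 9 (3 DPI, graft, no running). Runx1 was high at 2.75 TPM in 1 contralateral muscle at 7 DPI without repair or running (replicate 4), and Gadd45a low at 9.75 in 1 control muscle. The share of Chrng in Chrng and Chrne was high at 57.3% in replicate 4 at 14 DPI without repair or running and low at 48.5% in rat 11 (7 DPI, no repair, no running).

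Of the 9 libraries whose labels place them in no group, 5 lay above the highest control muscle for Chrna1, 5 for Chrnb1, 7 for Chrnd, 5 for Chrne, 4 for Chrng, 5 for Musk, 6 for Ncam1, 7 for Runx1 and 6 for Gadd45a.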

How the results depend on the processing

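Selected log2 fold changes (120 called and some not called) were refitted under 11 other settings, giving 1136 refits. Of these, 1096 kept direction and side of the threshold, 29 lost their call, 2 gained one and 9 changed sign. The total of 1096 pools settings that could change little. Dropping the filter leaves each fold change as it is, and each library as its own sample alters only 2 muscles. Neither these settings nor the replicate block by rat changed a selected call or sign. All libraries kept lost 18 calls and changed 4 signs, and size factors lost 9 calls and changed 3 signs. Gains among values outside this selection are given beside those values. With all libraries kept the sign changed for Chrne in contralateral against control muscle at 7 DPI (-0.37). With size factors it changed for Chrnb1 (-0.19) and Chrne (-0.63) against control at 3 DPI and for Chrnb1 against contralateral muscle at 3 DPI (-0.20). From 3 to 7 DPI it changed with all libraries kept for Musk (-0.12), Runx1 (-0.20) and Gadd45a (-0.23), and with rat number range added as covariate for Runx1 (-0.16) and Gadd45a (-0.15). The causes were not tested.

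The count of called genes in contralateral against control muscle at 3 DPI was 2 with a pseudocount of 0.1 TPM (Musk added) and 0 with size factors, all libraries or control averaged per rat, and 0 to 1 leaving out single muscles. At 7 DPI it was 1 with that pseudocount (Musk) and 1 with all libraries (Chrnb1, called lower). All libraries kept gave 1 for 7 against 3 DPI, 4 for 14 against 7 DPI, 1 for running over both arms at 28 DPI and 0 for running in contralateral muscle at 3 DPI. Leaving out single muscles gave 0 to 8 and 0 to 2 in these last comparisons and 0 to 1 for running without repair at 14 DPI (Runx1 added). Without rat 11 running at 7 DPI had 2 calls, and with size factors the running difference in the injury response at 3 DPI had 1. The replicate block by rat changed no call: against control at 3 DPI it kept 7 genes, and paired muscles of a rat correlated at a mean of 0.0722 over 36 pairs (-0.641 to 0.358). TPM gives no depth, and groups of 2 to 4 muscles limit what could be called.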

Other observations

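The 4 running rats at 28 DPI with conflicting labels gave 8 libraries. Those titled Inj held Chrna1 at 4.8, 6.26, 4.71 and 4.57 TPM in rats 77, 78, 79 and 80, and those titled Ctrl held 66.3, 136.3, 134.2 and 61.1 TPM. Chrng was at 0.03 to 0.07 TPM in the former and 8.15 to 20.4 in the latter, and Gadd45a at 18.7 to 29.1 and 85.4 to 211.6 TPM. In the ninth library without a group, titled Con and from rat 11, Chrna1 was at 5.53 and Gadd45a at 30.98 TPM.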
